A study of Mus musculus with 6 samples.

Results

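The core planar cell polarity genes of the membrane and its inner face were examined in embryonic mouse back skin with and without the receptor Frizzled 6. They comprise the Celsr, Vangl and Prickle families with Ankrd6 and Ptk7, 10 genes in all. Members were every probe set that the platform's annotation gives to 1 of these genes alone. This gave 17 of 45037 probe sets, or 9 of 18193 named genes, because Prickle3 had no such probe set and is not analysed here. The knockout samples were 3 from Fzd6 -/- embryos, and 3 samples from Fzd6 +/- embryos served as controls. All were taken at E15.5 on a C57BL6/129 mixed strain background and measured as total RNA on Affymetrix MOE430 2.0 arrays. The controls also carry 1 mutant Fzd6 copy, so no sample was wild type. The labels call the samples biological replicates. They do not say whether each came from 1 embryo.

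Planar cell polarity aligns cells within the plane of a sheet, and in skin it aligns hair follicles with the body axis. Celsr proteins are cadherins that span the membrane and join neighbouring cells. At such contacts Frizzled and Dishevelled gather on one face of a cell, while Vangl and Prickle gather on the opposite face of its neighbour. Mouse Celsr1, Vangl2 and Fzd6 are each needed for normal hair orientation.

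Values are RMA expression values on the log2 scale, so a difference of 1 is a doubling. A whole-skin sample mixes epidermis, dermis, vessels, nerve and muscle, and fewer cells of a type cannot be told apart from less RNA per cell. Probes differ in how strongly they bind, so levels of different probe sets do not rank the genes. As a guide to dim signal, 11 genes of retina, pancreas, testis and liver read between 3.15 (Gcg) and 6.84 (Prm1), with a median of 4.52. Only 2 of the 11, Prm1 and Ins2 (6.60), lay above the median level of all probe sets. The upper end is a wide bound, since Prm1 lay at percentile 62.3 of the levels of all probe sets. Of the member probe sets 9 lay above this range and 8 within it, and the brightest probe set lay above it for 7 of the 9 genes, all but Celsr3 and Ankrd6.

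Both arrays numbered 1 stood apart from the other 4. Endothelial markers lay at -0.92 in knockout 1 and -0.39 in control 1 as deviations from the mean of the 6 arrays, against 0.28 to 0.36 in the rest. Dermal fibroblast markers lay at -0.55 and -0.30 there, against 0.15 to 0.27. Suprabasal epidermal markers were higher in every knockout array (0.65, 0.10 and 0.019) than in any control array (-0.32, -0.30 and -0.15). The basal keratins Krt5 and Krt14 were bright, at mean levels of 12.7 and 12.9. So were the dermal collagens Col1a2 and Col3a1, at 14.0 and 14.1. Above the median level of all probe sets lay 13 of 13 basal, 12 of 13 suprabasal and 11 of 11 fibroblast markers. Of the hair placode markers 8 of 9 did. The exceptions were Flg of the suprabasal list, at 2.72, and Lhx2 of the placode list, at 5.53. The targeted gene had 3 probe sets, and in 2 of them every knockout array lay below every control. Its brightest read 9.07, 9.01 and 8.71 in knockout and 9.50, 9.51 and 9.11 in control arrays, so signal remained there in the knockout. Its dimmest read 5.49, 5.53 and 5.36 in knockout and 6.22, 6.09 and 6.09 in control arrays, and differed by -0.67 (95% confidence interval -0.87 to -0.47) with an adjusted p of 0.864 in limma. The other probe set differed by -0.0097. The sources used here do not place the Fzd6 probes relative to the deleted part.

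The question was whether loss of Frizzled 6 is accompanied by a shift in the mRNA of the other core components. At limma's adjusted threshold of 0.05 none of the 17 member probe sets was called (0 of 17, smallest adjusted p = 0.909), beside 0% of all 45037 probe sets. At an unadjusted p under 0.05 limma gave 1 of the 17, where 5.21% of all probe sets were called. The knockout and control arrays did not overlap in 1 of the 17, against 11.6% of all probe sets (5% in the direction of that probe set, lower in the knockout). By brightest probe set, 3 genes had higher values in the knockout (Celsr1, Celsr2 and Celsr3) and 6 had lower values (Vangl1, Vangl2, Prickle1, Prickle2, Ankrd6 and Ptk7). The median difference over the 9 genes was -0.096, beside 0.0070 over all named genes and -0.019 over the named genes above the median level. Its sign turned without knockout 1 (0.041), without control 2 (0.0085) and without both arrays numbered 1 (0.0060).

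**Figure D1:**
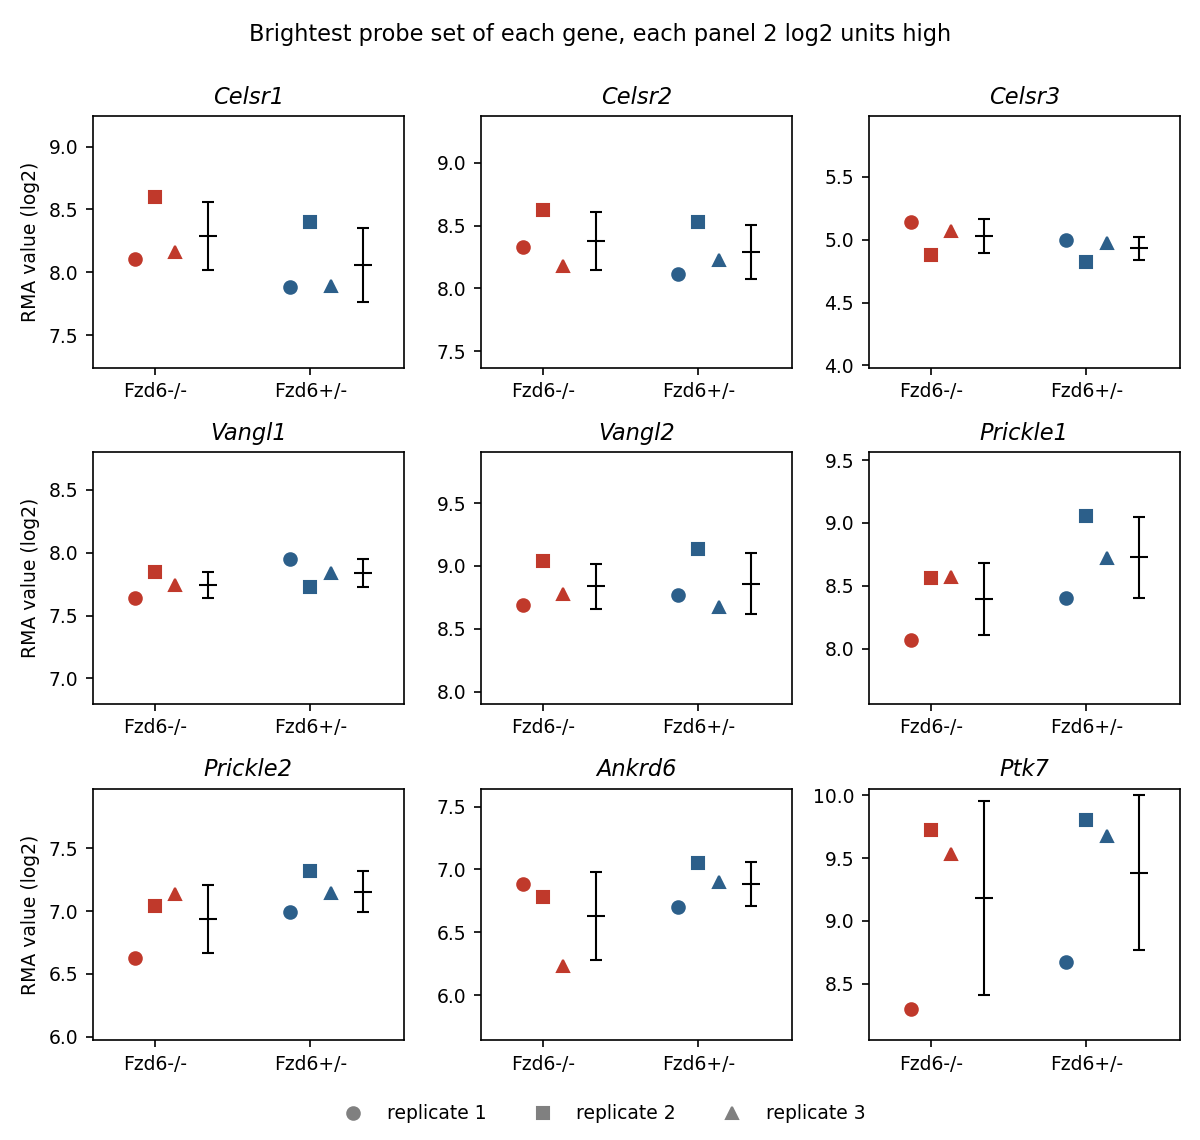
RMA values (log2) of the brightest probe set of 9 core polarity genes in each Fzd6 -/- and Fzd6 +/- array, with symbols for the replicate number and black bars for mean ± SD of 3 arrays. Every panel spans 2 log2 units, and the groups overlap in all 9; Ptk7 spreads most, with both arrays numbered 1 far below the others.

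Celsr1, the cadherin whose mouse mutants have misdirected hair, had higher values in the knockout that did not pass the test. It read 8.10, 8.60 and 8.16 in knockout and 7.88, 8.40 and 7.89 in control arrays. Control 2 lay above 2 of the 3 knockout arrays, so the groups overlapped. The means were 8.29 ± 0.27 in knockout and 8.06 ± 0.30 in control skin (SD, n = 3 each). The difference was 0.23, with a 95% confidence interval of -0.20 to 0.66 (limma adjusted p = 0.923). It was 0.076 without knockout 2, 0.14 without control 1, 0.15 without control 3 and 0.40 without control 2. The arrays numbered 2 were the highest of each group, and between arrays of the same number the knockout was higher by 0.22, 0.20 and 0.27. Celsr1 lies on chromosome 15 (GRCm38.p6, 85898758 to 86034223), 46.9 Mb from the targeted Fzd6 gene on the same chromosome.

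Celsr2 acts in the beating cilia of the brain's ventricles and was read by 2 probe sets. The brighter read 8.33, 8.63 and 8.18 in knockout and 8.11, 8.53 and 8.22 in control arrays, a difference of 0.091 (-0.26 to 0.44). The dimmer read 5.37, 5.55 and 5.45 in knockout and 5.08, 5.39 and 5.29 in control arrays. Only control 2 lay within the knockout range in the dimmer one, whose difference was 0.20 (-0.038 to 0.45, limma adjusted p = 0.909). The brighter probe set followed the array order of Celsr1 in its extremes, being highest in knockout 2 and lowest in control 1.

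Celsr3 guides axons and is mostly known from neurons. Its probe set was dim and read 5.14, 4.88 and 5.07 in knockout and 4.998, 4.83 and 4.97 in control arrays. The groups overlapped, with a difference of 0.096 (-0.13 to 0.33, limma adjusted p = 0.939). Neuron and nerve markers ran the other way, by -0.075, -0.054 and -0.064 in knockout arrays and by 0.19, -0.024 and 0.030 in control arrays, with 7 of 8 genes lower. Of these markers Stmn2 and Gap43 were well above the dim range at 8.62 and 9.42, and they differed by only -0.011 and -0.092. The other markers of the list lay within or below that range, with Snap25 at 2.98. Among them Nefl, at 4.99, had the largest difference (-0.56).

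Dim probe sets as a whole leaned toward the knockout, which touches Celsr3 and the dimmer Celsr2 probe set. Of the 22519 probe sets at or below the median level, 13608 had higher values in the knockout (median difference 0.027), against 9188 of the 22518 brighter ones (median difference -0.029). The genes not expected in skin were higher in the knockout in 10 of 11, by a mean of 0.089. As deviations, that list gave 0.051, 0.017 and 0.065 for knockout and -0.0053, -0.066 and -0.063 in control arrays. The part of this lean in the Celsr values was not tested. Of the 6 dim member probe sets 5 had higher values in the knockout, and of the 11 brighter ones 2 had.

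**Figure D2:**
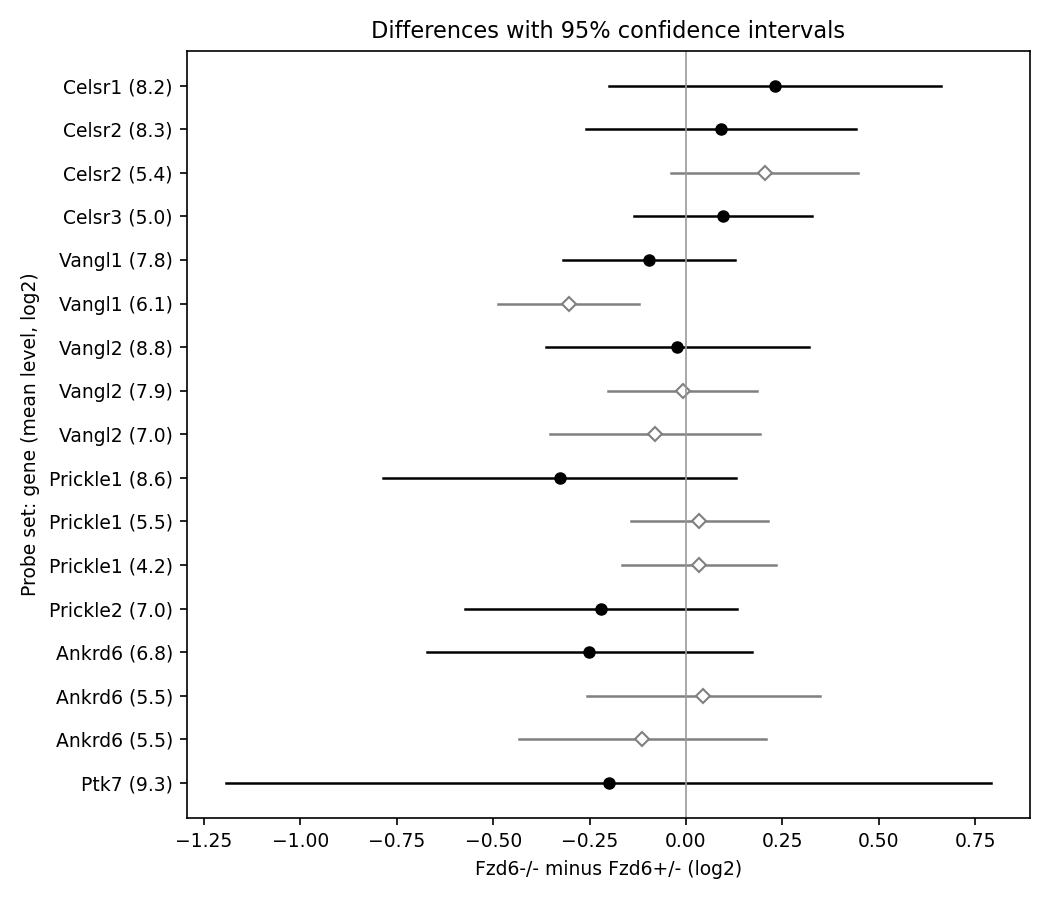
Difference in log2 RMA value, Fzd6 -/- minus Fzd6 +/-, with limma's 95% confidence interval for each of the 17 member probe sets, labelled by gene and mean level. Filled circles mark the brightest probe set of a gene and open diamonds the others; the interval leaves out 0 in 1 probe set, the dimmer one of Vangl1.

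Vangl2 is the membrane protein altered in the Looptail mouse, and it was read by 3 probe sets. The brightest read 8.69, 9.04 and 8.78 in knockout and 8.77, 9.13 and 8.67 in control arrays. The next read 7.86, 7.94 and 7.81 in knockout and 7.82, 7.86 and 7.97 in control arrays. The dimmest read 6.87, 7.14 and 6.93 in knockout and 6.90, 7.23 and 7.04 in control arrays. The groups overlapped in each. The differences were -0.022 (-0.36 to 0.32), -0.0090 (-0.20 to 0.18) and -0.079 (-0.35 to 0.19), with limma adjusted p of 0.993, 0.995 and 0.960. A change of the brightest beyond 0.36 in either direction thus lay outside its interval, and beyond 0.20 for the next. The sign of the brightest was not stable to leaving out arrays, running from -0.12 without knockout 2 to 0.11 without control 2.

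Vangl1, the close relative that can share Vangl2's role, gave the one member probe set whose groups did not overlap. That probe set, at the median level of the array, read 5.84, 5.99 and 5.87 in knockout and 6.20, 6.22 and 6.20 in control arrays. Every knockout array lay below every control, and the controls nearly coincided (SD 0.0087, against 0.083 in knockout). The difference was -0.30 (-0.49 to -0.12, limma adjusted p = 0.909). Its unadjusted limma p was 0.00546. Any probe set without overlap has an exact two-sided permutation p of 0.1, the smallest that 3 against 3 arrays allow. That p thus restates the lack of overlap. The brighter Vangl1 probe set read 7.64, 7.85 and 7.74 in knockout and 7.95, 7.73 and 7.84 in control arrays. Its groups overlapped, and its difference was -0.096 (-0.32 to 0.13, limma adjusted p = 0.936). Both probe sets thus had the same sign but differed in size by 0.21, and the one without overlap lay within the level range of the genes not expected in skin.

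Prickle proteins are LIM-domain proteins that bind Vangl at the inner face of the membrane. Prickle1 read 8.07, 8.56 and 8.57 in knockout and 8.41, 9.05 and 8.72 in control arrays in its brightest probe set. Knockout 1 was the lowest and control 2 the highest array, and 2 knockout arrays lay above control 1. The means were 8.40 ± 0.29 in knockout and 8.73 ± 0.32 in control skin (SD, n = 3 each). The difference was -0.33 (-0.79 to 0.13, limma adjusted p = 0.912). It was -0.16 both without knockout 1 and without control 2. The 2 other Prickle1 probe sets were dim, at mean levels of 5.45 and 4.19, and differed by 0.035 (-0.14 to 0.21) and 0.034 (-0.16 to 0.23). Prickle1 also lies on chromosome 15 (GRCm38.p6, 93499111 to 93596266), 54.5 Mb from Fzd6.

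Prickle2, studied mostly in brain, had 1 probe set. It read 6.63, 7.04 and 7.14 in knockout and 6.996, 7.32 and 7.15 in control arrays. Knockout 1 was again lowest and control 2 highest. The difference was -0.22 (-0.57 to 0.13, limma adjusted p = 0.917). Without knockout 1 it was -0.067.

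Ankrd6, also called Diversin and related to the fly polarity gene diego, encodes an ankyrin-repeat protein that binds Dishevelled. Its brightest probe set read 6.89, 6.78 and 6.23 in knockout and 6.70, 7.05 and 6.90 in control arrays. Knockout 3 alone lay far below the rest, and knockouts 1 and 2 lay above control 1. The difference was -0.25 (-0.67 to 0.17, limma adjusted p = 0.918), and it was -0.052 without knockout 3. The dimmer probe sets differed by 0.045 (-0.26 to 0.35) and -0.11 (-0.43 to 0.21). In both of them the knockout arrays spread more (SD 0.26 and 0.28) than the control arrays (SD 0.029 and 0.033).

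Ptk7 is a receptor with an inactive kinase domain that acts with the core proteins, and it varied most between arrays. It read 8.30, 9.72 and 9.53 in knockout and 8.67, 9.80 and 9.68 in control arrays. Both arrays numbered 1 lay at 8.67 or less and the other 4 at 9.53 or more, so the gap ran across genotypes. The means were 9.18 ± 0.77 in knockout and 9.38 ± 0.62 in control skin (SD, n = 3 each). The difference of -0.20 had the widest interval of the members, -1.19 to 0.79 (limma adjusted p = 0.977). Its sign depended on single arrays, at 0.24 without knockout 1 and -0.56 without control 1.

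Arrays low for one member were not always low for another. Ptk7, Prickle1 and Prickle2 had knockout 1 and control 1 as their lowest pair of arrays, as 18.8% of all named genes did. In knockout 1 they lay at -0.98, -0.49 and -0.42 as deviations from their own means. Knockout 1 and control 1 also held the lowest values of the fibroblast and endothelial lists given above. Celsr1 and Celsr2 lay at -0.070 and -0.0065 in knockout 1 and were lowest in control 1, at -0.29 and -0.22. Vangl2 lay at -0.15 in knockout 1 and -0.076 in control 1. Celsr1, Celsr2 and Vangl2 were highest in the arrays numbered 2. The basal epidermis list deviated by 0.23, 0.15 and -0.21 in knockout arrays and by 0.052, 0.11 and -0.32 in control arrays. With the fibroblast list as a covariate the differences were -0.086 for Ptk7, -0.28 for Prickle1, -0.19 for Prickle2 and 0.26 for Celsr1. With the basal epidermis list as a covariate they were -0.058, -0.29, -0.18 and 0.17 in the same order of genes.

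**Figure D3:**
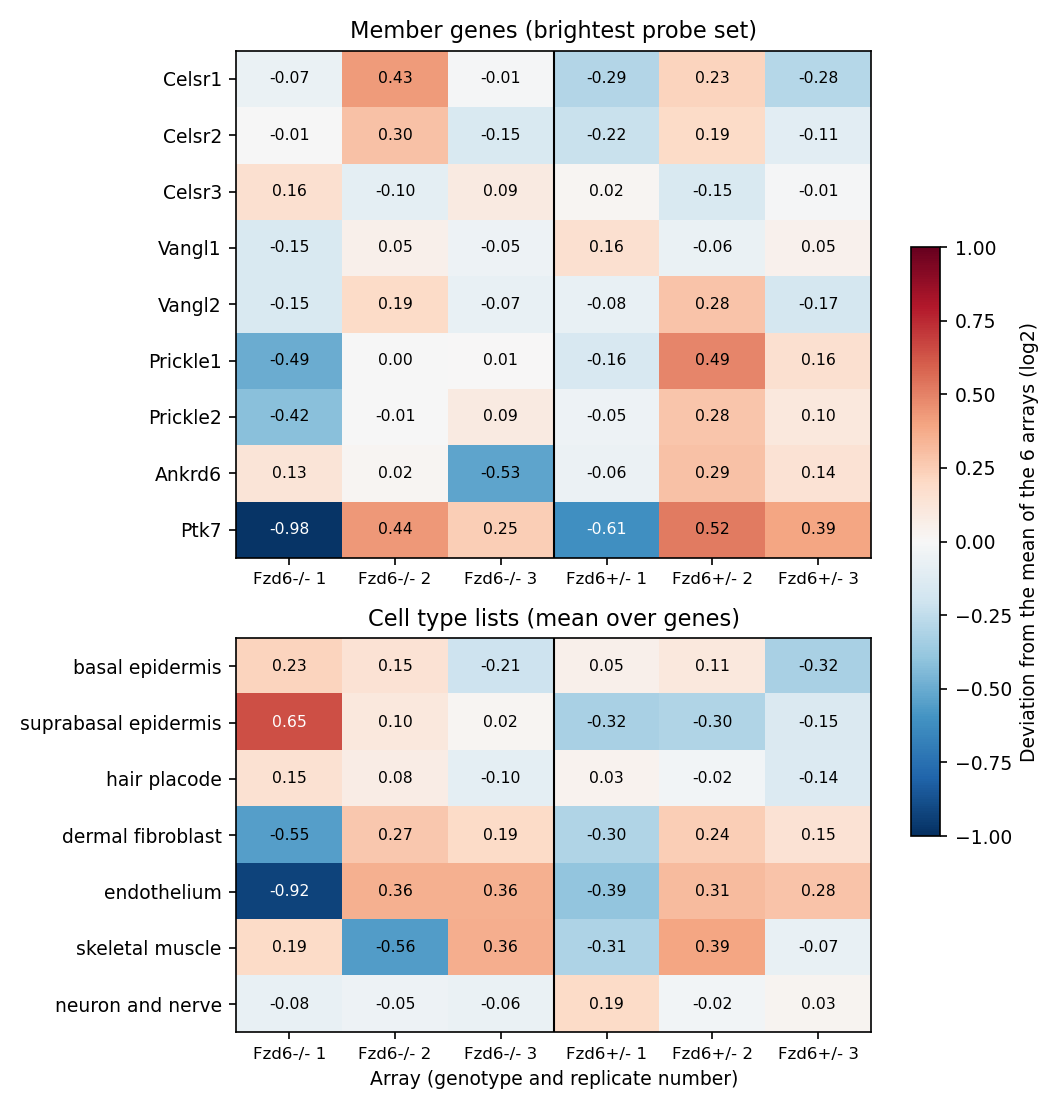
Deviation of each array (columns, Fzd6 -/- left of the black line, Fzd6 +/- right) from the mean of the 6 arrays in log2, for 9 member genes (upper panel) and 7 cell type lists (lower panel, mean over genes). Ptk7 at -0.98 and -0.61 in the arrays numbered 1 runs beside the endothelial list at -0.92 and -0.39; Celsr1 lies at -0.070 and -0.29 in those arrays and Vangl2 at -0.15 and -0.076.

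Ptk7 had the widest range over the 6 arrays (1.503), and the genes whose profile was most like it were sought among 11848 named genes above the median level. Likeness was the mean absolute difference between deviations over the 6 arrays. The closest were Vegfc, a growth factor of lymphatic vessels (0.054), Scarf2, a scavenger receptor (0.063), Gucy1a1, a subunit of soluble guanylate cyclase (0.063), Bach2, a transcription repressor (0.068), and Dlk1, a membrane protein of mesenchymal progenitors (0.069). The median over those genes was 0.54, and a gene with no variation would have scored 0.53. None of these 5 passed the test between genotypes, with differences of -0.24 to -0.10 (limma adjusted p = 0.971 to 0.990). Differences near that of Ptk7 follow from how these genes were chosen, so this is no separate result. The likeness rests on 6 arrays and mostly on the gap between the arrays numbered 1 and the rest.

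Arrays of both groups carry numbers 1 to 3, and differences were also taken within a number. Here deviations were taken from the mean of each array's own genotype group, over all probe sets, and correlated between knockout and control arrays. They set apart the arrays numbered 1, which correlated at 0.568. The other numbers were not set apart, since control 2 correlated at 0.359 with knockout 2 and at 0.422 with knockout 3. Knockout 3 correlated at 0.124 with control 3. The sign was the same in all 3 for 5 of 9 genes, against 36.7% of all named genes. Celsr1 and Celsr3 (0.14, 0.053 and 0.096) were higher in the knockout in every number. Prickle1 (-0.34, -0.49 and -0.15), Prickle2 (-0.37, -0.28 and -0.010) and Ptk7 (-0.37, -0.082 and -0.15) were lower in every number. The Vangl1 probe set without overlap differed by -0.36, -0.22 and -0.33. With the number as a block, limma gave an unadjusted p under 0.05 for 3 of the 9 genes, namely Celsr1, Prickle1 and Prickle2, where 12.2% of named genes were called. None passed after adjustment (limma adjusted p = 0.344, 0.34 and 0.409 in the blocked fit), where 0.00666% of all probe sets did.

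**Figure D4:**
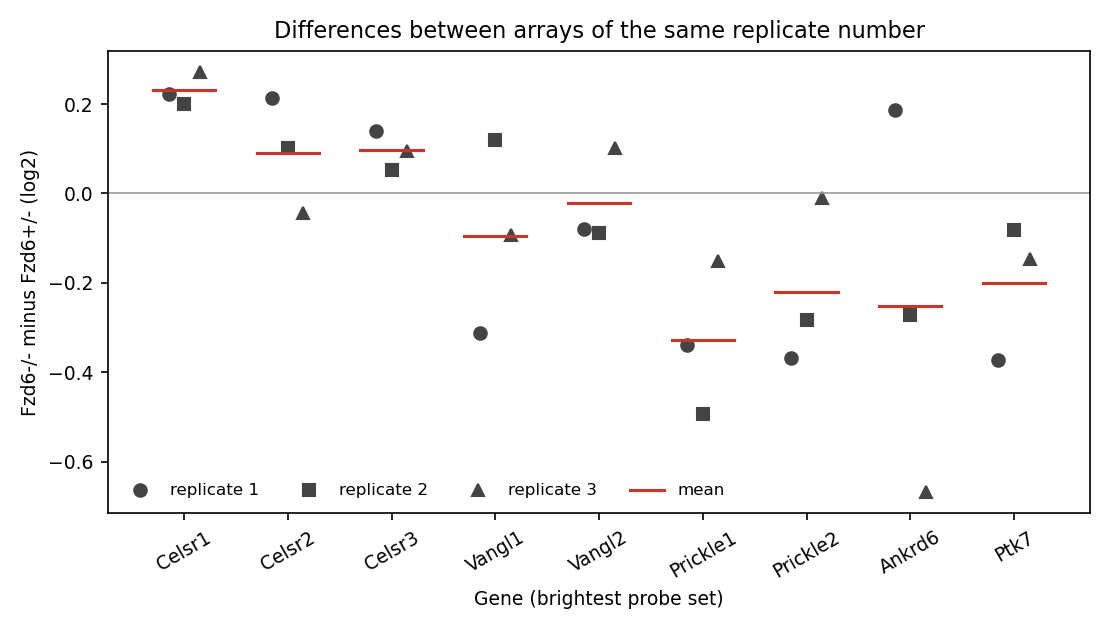
Difference in log2 RMA value between the Fzd6 -/- and Fzd6 +/- arrays of the same replicate number (symbols) and their mean (red bar) for the brightest probe set of each of 9 genes. The 3 differences of Celsr1 lie between 0.20 and 0.27, whereas those of Ankrd6 run from -0.67 to 0.19.

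Partners of these proteins were read from a list of 32 other polarity genes, of which 30 had a named probe set. By brightest probe set 9 had higher and 21 lower values in the knockout, with a median of -0.16, and 0 passed limma's adjusted p of 0.05. At an unadjusted p under 0.05 there were 6, where 5.07% of named genes were called. In 7 of the 30 each knockout array read less than each control array, against 4.31% of named genes, and in 0 did the reverse hold. The list holds Fzd6 itself, and it was chosen with earlier results of these data known, so the count is a description only.

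The ligands and co-receptors of that list, Wnt5a, Wnt11, Ror1, Ror2, Ryk and Cthrc1, had lower values in 6 of 6. Of all named genes 47.6% had lower values, and of those above the median level 56.2%. This was the most one-sided group of the list, as the others had lower values in 50% to 75% of genes. Between arrays of the same number Ror2 differed by -0.57, 0.0042 and -0.012, so its lower mean came mostly from the arrays numbered 1. Cthrc1, a secreted protein that stabilises Wnt and Frizzled complexes, read 5.25, 5.47 and 5.69 in knockout and 6.39, 6.18 and 6.003 in control arrays. The groups did not overlap, and the difference of -0.72 (-1.06 to -0.39) had a limma adjusted p of 0.909. The mean level of Cthrc1, 5.83, lay within the level range of the genes not expected in skin. Distance from Fzd6 was taken only for Celsr1 and Prickle1, so whether Cthrc1 lies near the targeted gene was not examined. Wnt11, a ligand of this pathway, read 6.52, 6.91 and 7.002 in knockout and 7.11, 7.29 and 7.21 in control arrays (-0.39, -0.71 to -0.076, limma adjusted p = 0.909). Fzd6 differed by -0.44 (-0.78 to -0.11) in its brightest probe set.

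Fzd3, the Frizzled that overlaps with Fzd6 in function, differed by -0.21 in its brightest probe set and by -0.020 to 0.13 in 5 dimmer ones. Dishevelled genes, which carry the signal inside the cell, had differences of 0.016 (Dvl1), -0.16 (Dvl2) and 0.059 (Dvl3). The 4 cilium effectors had 3 lower and 1 higher value, and the 6 adhesion and scaffold genes 3 of each. By brightest probe set the members had lower values in 6 of 9 genes (66.7%) and the partners, Fzd6 included, in 21 of 30 (70.0%). The share was 47.6% of all named genes and 56.2% of those above the median level, where 8 of the 9 members lay. These shares were not tested against each other.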

How the data were processed

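The deposited values are log2 expression values made by the authors with RMA (background correction, quantile normalisation between arrays, summary per probe set), per the submitters' processing notes. These name no version, and log2 was read from the range of the values. RMA evens out shifts shared by most genes and shrinks differences of dim probe sets. Of 45101 rows, 64 array controls were left out, and low values were not filtered. Names came from the platform annotation, updated through Entrez identifiers to GRCm38.p6. In all, 34945 probe sets had 1 symbol, 932 several and 9160 none. A gene is represented by its probe set with the highest mean.

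Knockout minus control was tested by limma 3.58.1 (lmFit and eBayes, R 4.3.3; two-sided, without covariates), with Benjamini-Hochberg adjustment over 45037 probe sets and 95% intervals. The code was tested on simulated data. Figures used matplotlib 3.10.9. Members, lists and tests were chosen with earlier results of these data known. Named genes are all members, Fzd6 and Fzd3, and the 5 genes most like the member of widest range. The 3 genes of the other polarity list with the smallest unadjusted limma p were also named, namely Cthrc1, Fzd6 itself and Wnt11. Other genes named were chosen after their values were seen. The replicate numbers come from the sample titles, and no label says that arrays of the same number belong together. Deviations of same-numbered arrays from the mean of their own genotype group correlated at 0.568, 0.359 and 0.124. Only for number 1 was this the highest correlation of both its arrays. The number of arrays, 3 per group, limits precision. Where separate embryos are not stated, p-values measure the spread between these samples.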

Additional observations from a re-analysis of the deposited data

How the results depend on the processing

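No member probe set passed the adjusted threshold under 15 alternatives and no other polarity gene under 16 (the mean over probe sets of a gene applies to genes only), and over all probe sets the count was 0 except for 3 in the replicate block (limma), none of them a member. The block changed no call of a member or other polarity gene. The count of member probe sets without overlap, 1 of 17 with all arrays, was 2 with centred arrays (12% of all probe sets). It ran from 1 to 5 with 1 array left out (5 without control 1, where 25.2% of all probe sets did not overlap; 3 without knockout 1, knockout 2 or control 2, beside 23.9%, 20.9% and 18.3% of all probe sets), and was 7 without both arrays numbered 1 (39.1%). These counts rise with fewer arrays by construction. The median difference over member genes ran from -0.147 to 0.041 with 1 array left out (the highest without knockout 1), and was -0.148 without dim probe sets and 0.0060 without both arrays numbered 1. No difference of a single gene passed in any setting, and the sign turned in 10 of 143 values. Vangl2 turned with a further quantile normalisation (0.0010), array weights (0.031) and without both arrays numbered 1 (0.0060), and ran from -0.125 to 0.114 with 1 array left out. Vangl1 turned without both arrays numbered 1 (0.013) and ran from -0.152 to -0.038 with 1 array left out. Ptk7 ran from -0.556 to 0.241 with 1 array left out and Celsr2 from -0.034 to 0.21. With the mean of all probe sets of a gene, Prickle1 differed by -0.086 and Vangl1 by -0.20. Array weights set knockout 1 at 0.43 and control 1 at 0.61, against 0.99 to 1.81 elsewhere. No detection calls were made, so brightness alone stands for signal over background, which limits what can be said of Celsr3 and the dim probe sets. Counts without overlap do not use the fitted model, so the trend, weights, block and covariates give no value for them.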

Other observations

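Beyond the core genes, 3 further polarity genes were low in both arrays numbered 1, as Ptk7 was. They were chosen after their values were seen. Fat4, a giant cadherin of the Fat and Dachsous system, read 7.34, 9.02 and 8.77 in knockout and 7.99, 9.33 and 8.80 in control arrays. Its ligand Dchs1 read 6.72, 8.08 and 7.85 in knockout and 7.39, 8.14 and 7.69 in control arrays. The Wnt5a receptor Ror2 read 6.18, 7.75 and 7.51 in knockout and 6.75, 7.75 and 7.52 in control arrays, and it ranked 7 among genes most like Ptk7. In each, both arrays numbered 1 were the lowest pair, as in 18.8% of all named genes. The 3 genes were picked for this pattern, so it is no separate result. Their differences between genotypes of -0.33, -0.19 and -0.19 did not pass limma's test (adjusted p = 0.960, 0.972 and 0.979).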
